A study of Mus musculus with 3 samples.

Results

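Genes of synaptic vesicles and of the SNARE machinery were taken by symbol as the synaptotagmins (Syt), syntaxins (Stx), syntaxin-binding proteins (Stxbp), SNAP25-like proteins (Snap), vesicle-associated membrane proteins (Vamp), synapsins (Syn), SV2 proteins (Sv2a to Sv2c) and complexins (Cplx). The rule used no measured value and found 58 of 17992 counted genes. The data were read counts from total RNA of adult wild-type C57BL/6 mouse brain, with 1 library for each of 3 groups. AGNHW, an herbal and mineral medicine (Angong Niuhuang Wan), was dosed at 3 mg/g/d in the group of that name, and the labels do not repeat for it that an artery was occluded. The vehicle group is labelled as the middle cerebral artery occlusion model, a form of experimental stroke, and the sham group as its control. No label used here names the brain region, the time after surgery or how many mice stand behind a library.

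Neurons release transmitter when a vesicle fuses with the plasma membrane. A vesicle SNARE (synaptobrevin, encoded by the Vamp genes) zips together with syntaxin and SNAP25 on the plasma membrane, held ready by complexin and triggered by calcium binding to synaptotagmin. Synapsins tether the reserve vesicles, SV2 proteins sit in the vesicle membrane, and related SNAREs carry out fusion inside every cell, at the Golgi, endosomes and autophagosomes.

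The libraries held 18184691 (AGNHW), 15718594 (vehicle) and 18286151 (sham) counts. The 58 genes took 1.52%, 1.48% and 1.54% of these in the same order, and their 10 most counted members took 70.6% to 71.1% of the genes' own counts. Of the 58, 55 had a mean of at least 1 CPM over the 3 libraries, the minimum for a comparison. CPM are counts normalised to library size, scaled by the trimmed mean of M-values (TMM). Syt15, Vamp9 and the pseudogene Stxbp3-ps lay below it, with 6 to 18 counts per library. A gene was called higher or lower when its CPM ratio reached 1.5-fold and the 95% interval of the ratio, which covers counting error only, excluded 1. With 1 library per group no difference has a replicate check, no test of the conditions was possible, and all statements describe these libraries.

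The tissue label was checked against markers. All 18 pan-neuronal markers were counted, with summed levels of 8910, 9422 and 8669 CPM in AGNHW, vehicle and sham, and all 10 markers each of astrocytes, oligodendrocytes and microglia were above 0 in every library. Pituitary markers stood apart. Their sum over 12 counted genes of 15 listed was 18.6 CPM in AGNHW, 3766 CPM in vehicle and 29.3 CPM in sham, and 3, 0 and 4 of the 12 were at 0 in the same order. Pituitary cells also use the exocytosis machinery described here, and their part in any value of the vehicle library was not tested. In bulk tissue, fewer cells of a type and less RNA per cell cannot be told apart.

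The results turned on a few genes. Vamp1 and Syt2 were the release genes of the core machinery that were furthest above sham in both other libraries, while Stxbp5l and Snap23 were the genes that passed the rule both between vehicle and sham and between AGNHW and vehicle. Their promoter windows are shown to give the sequence context of these genes. Each is the RefSeq window of 300 bases around an annotated start, in build GRCm38.p6. Capitals mark the GC box GGGCGG on either strand (CCGCCC on the other), the E-box CACGTG, the cAMP response element TGACGTCA and the TATA box TATAAA, of which only GC boxes occurred in these 5 windows. Vamp1 lies at chr6:125215331-125215630 (plus strand), Syt2 has starts at chr1:134646362-134646661 and chr1:134709050-134709349 (plus strand), Stxbp5l lies at chr16:37384909-37385208 (minus strand) and Snap23 at chr2:120567421-120567720 (plus strand).
Vamp1: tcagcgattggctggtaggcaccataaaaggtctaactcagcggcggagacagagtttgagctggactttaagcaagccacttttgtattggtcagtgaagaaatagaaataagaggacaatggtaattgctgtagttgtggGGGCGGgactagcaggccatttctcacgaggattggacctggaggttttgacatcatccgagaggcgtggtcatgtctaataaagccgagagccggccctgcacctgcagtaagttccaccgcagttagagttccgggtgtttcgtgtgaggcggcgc
Syt2, upstream start: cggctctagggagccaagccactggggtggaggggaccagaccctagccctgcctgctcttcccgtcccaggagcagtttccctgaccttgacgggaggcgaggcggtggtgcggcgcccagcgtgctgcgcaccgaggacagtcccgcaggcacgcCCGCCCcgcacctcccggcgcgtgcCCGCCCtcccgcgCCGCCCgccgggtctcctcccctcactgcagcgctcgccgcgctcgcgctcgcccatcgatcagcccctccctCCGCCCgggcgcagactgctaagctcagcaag
Syt2, downstream start: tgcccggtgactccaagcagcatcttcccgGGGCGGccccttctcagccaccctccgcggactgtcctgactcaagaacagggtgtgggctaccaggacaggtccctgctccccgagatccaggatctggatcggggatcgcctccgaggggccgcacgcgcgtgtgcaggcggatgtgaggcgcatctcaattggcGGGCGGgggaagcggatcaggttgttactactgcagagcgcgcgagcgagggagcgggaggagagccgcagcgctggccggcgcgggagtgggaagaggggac
Stxbp5l: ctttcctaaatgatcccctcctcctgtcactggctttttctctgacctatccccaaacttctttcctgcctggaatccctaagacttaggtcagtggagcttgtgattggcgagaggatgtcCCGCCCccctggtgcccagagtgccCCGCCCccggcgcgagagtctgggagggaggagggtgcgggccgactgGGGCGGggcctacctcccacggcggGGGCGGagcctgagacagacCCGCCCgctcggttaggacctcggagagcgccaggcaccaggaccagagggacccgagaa
Snap23: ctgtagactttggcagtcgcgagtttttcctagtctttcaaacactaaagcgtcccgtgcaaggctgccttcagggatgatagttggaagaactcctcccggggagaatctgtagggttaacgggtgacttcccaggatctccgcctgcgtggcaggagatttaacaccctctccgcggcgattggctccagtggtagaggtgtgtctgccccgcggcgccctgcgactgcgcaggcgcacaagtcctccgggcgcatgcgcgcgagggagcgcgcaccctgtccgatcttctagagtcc

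The Vamp1 window had 51.7% GC, 14 CpG and 1 GC box, against 74.3% and 68.3% GC with 4 and 2 GC boxes in the Syt2 windows. The Stxbp5l window had 65.0% GC, 18 CpG and 5 GC boxes, and the Snap23 window 60.3% GC, 25 CpG and 0 GC boxes. GC boxes thus stood beside Vamp1 and Syt2, which were above sham, and also beside Stxbp5l, which was below it. Of the 58 genes, 45 had an entry, with 58 windows in all. A GC box was present in 67.2% of these windows, against 35.7% of the 32851 windows of all genes, an E-box in 13.8% against 7.15%, the cAMP response element in 3.45% against 1.79%, and the TATA box in 6.90% against 13.6%. The median GC content was 63.7% for the windows of these genes and 52.7% for all windows. A match to such short letters is a description and not a binding site.

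Levels were compared between genes as CPM per kb of the longest annotated transcript, averaged over the libraries. Vamp2, the main synaptobrevin of forebrain synapses, stood highest at 620, followed by the complexin Cplx1 at 584. Other genes with high levels were Snap25 (345), Cplx2 (268), Syn1 (219), Snap47 (202), Syt1 (188) and Stx1a (168). Genes of synaptic release thus led the list, with Snap47 among them. The syntaxins of internal membranes lay well below these, with Stx12 the highest at 31.0 CPM per kb. Some release genes lay lower than Stx12, such as Syt2 (13.3) and Sv2c (6.11). The plot of levels shows that for most genes the 3 libraries lay close together on a log scale that spans more than 3 orders of magnitude.

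**Figure D1:**
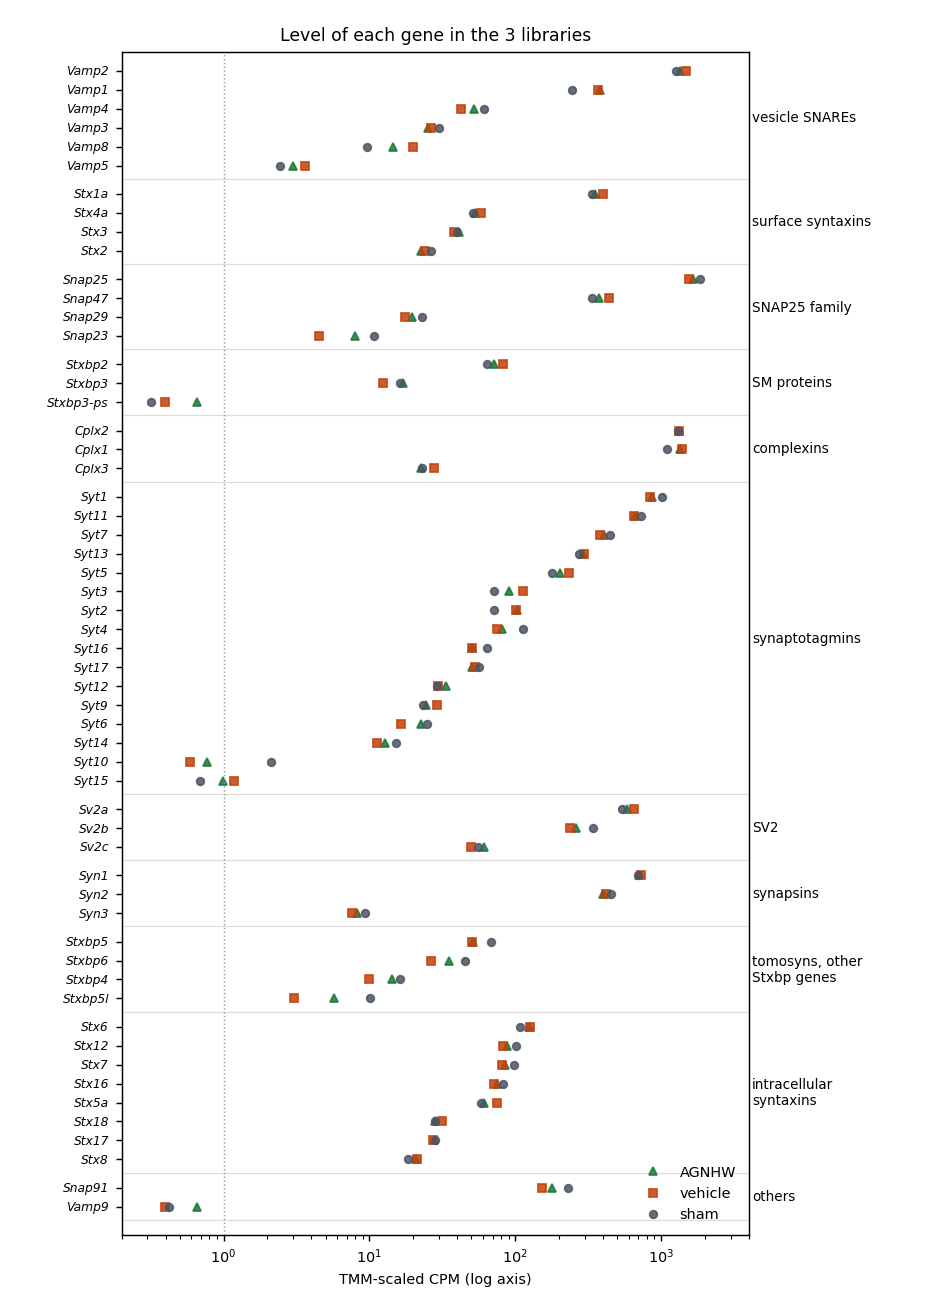
TMM-scaled CPM (log axis) of the genes reported here in the AGNHW (triangle), vehicle (square) and sham (circle) libraries, grouped by role and without error bars because each point is 1 library. The dotted line marks the minimum mean of 1 CPM. Markers of a gene lie close together in most rows, and the highest and lowest library are more than 2-fold apart in the compared genes Vamp8, Snap23, Stxbp5l and Syt10.

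Vehicle was set against sham to describe the occluded brain beside its control. Of the 15 genes of the core release machinery, 1 was higher (Vamp1, 1.51-fold) and 0 lower, and the lowest ratio was 0.696 (Sv2b). With ratios corrected for GC content and transcript length, 2 were higher, Vamp1 and Syt2. Outside the core, a tomosyn (Stxbp5l), a widespread SNAP25 relative (Snap23) and Syt10 were more than 2-fold lower, and Vamp8 was 2.08-fold higher. Syt10 reached the 1 CPM minimum through the sham library alone, so the filter in part fixes its direction against sham. Without it, 5 genes were lower between vehicle and sham and 1 between AGNHW and sham. Of the 55 compared genes, 3 were higher and 6 lower, together 16.4%. Of all 15558 compared genes, 22.8% passed the same rule (8.66% higher, 14.2% lower). The share of the synaptic genes was 21.8% with plain CPM, for which the share of all genes was not computed. With the corrected ratios the share of the synaptic genes was 10.9% against 11.8% of all genes. The difference between the shares was not tested. The median log2 ratio was -0.10 for the synaptic genes and 0.01 for all compared genes. With plain CPM in place of TMM, 2 were higher and 10 lower, so 16.7% of the called genes were higher, against 33.3% with TMM. Plain CPM also moved the median log2 ratio of all compared genes, by -0.09.

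Setting AGNHW against vehicle addresses the treatment, on the reading that its mice were occluded too. Few of these genes differed. Snap23 and Stxbp5l were higher in AGNHW, 0 genes were lower, and the 2 calls made 3.64% of the 55 genes, against 6.57% of all compared genes (4.01% higher, 2.56% lower). The median log2 ratio was 0.03 for the synaptic genes and 0.00 for all genes. For 48 of the 55 genes the log2 ratio lay within 0.32 either way. Between AGNHW and sham, Vamp1 and Vamp8 were higher and Stxbp5l and Syt10 lower, 7.27% of the genes against 8.79% of all genes (3.32% higher, 5.47% lower), with medians of -0.02 and -0.00. The 3 comparisons share libraries, so their values are not independent of each other.

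**Figure D2:**
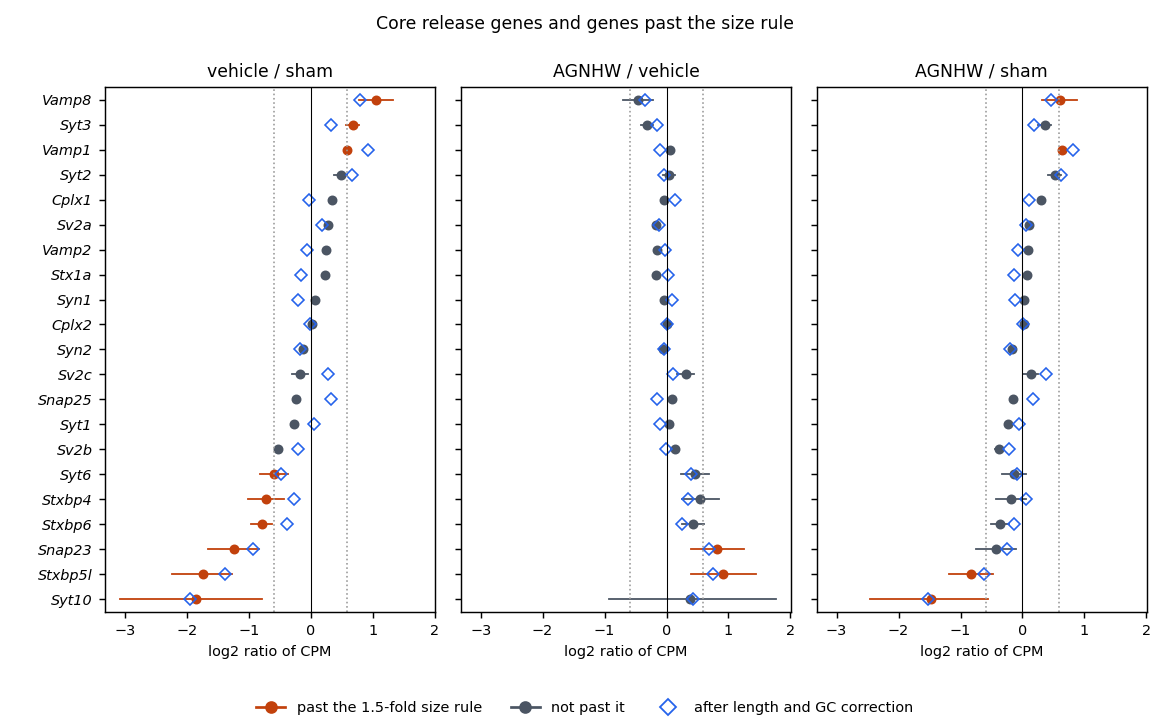
Log2 ratio of CPM for the core release genes reported here and every other gene past the size rule, in the 3 comparisons. Circles are the ratios with 95% counting intervals as bars, orange where past the 1.5-fold size rule (dotted lines), and blue diamonds are the ratios after correction for transcript length and GC content. The diamonds of Vamp1 and Syt2 lie beyond the dotted line in both comparisons with sham, and those of Stxbp6, Stxbp4 and Syt6 lie inside it.

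The ratios followed the base composition of the transcripts, for these genes as for all genes. Between vehicle and sham, the 14 compared synaptic genes with under 45% GC in their longest transcript had a median log2 ratio of -0.44, against -0.42 for the 3686 compared genes of that range. The 27 genes with at least 50% GC had a median of 0.22, against 0.23 for 7628 genes of that range. Between AGNHW and vehicle the order was turned round, with 0.15 and -0.10 for the same groups of synaptic genes and 0.19 and -0.10 for all genes. Transcript length and GC content together explained 46.9%, 26.9% and 37.9% of the variance of the log2 ratio in vehicle against sham, AGNHW against vehicle and AGNHW against sham, over 9947 genes of at least 10 CPM. Whether the trend came from the animals or from the making of the libraries was not tested.

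**Figure D3:**
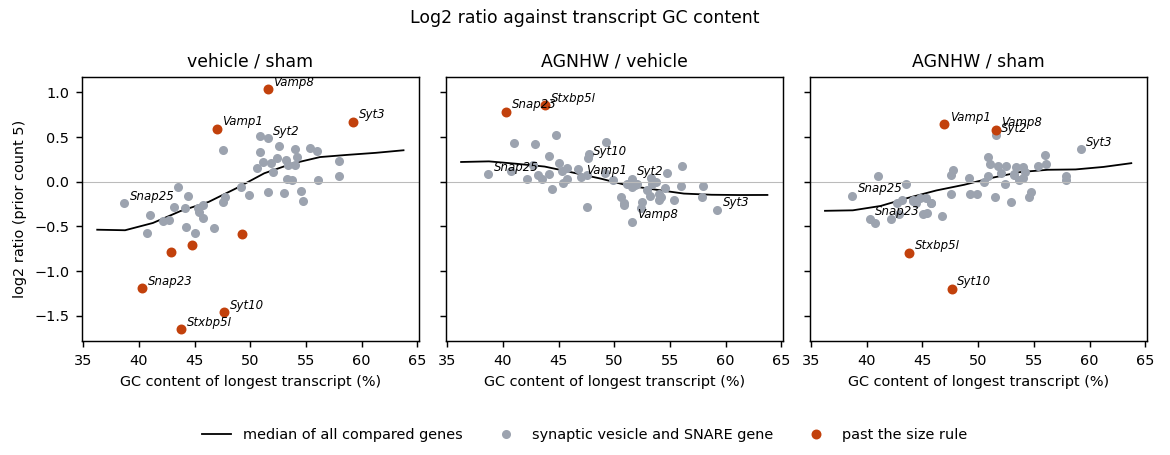
Log2 ratio (prior count 5) of the 55 compared synaptic vesicle and SNARE genes against the GC content of their longest transcript, in the 3 comparisons, each point 1 gene. The line is the median of all compared genes in GC bins of equal width, and orange points passed the size rule. Most points follow the line, while Vamp1 lies above it in both comparisons with sham, and Stxbp5l, Snap23 and Syt10 lie below it between vehicle and sham.

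A smooth correction for length and GC content was therefore tried. It turned the ratio to the other side of 1 for 18 of the 55 genes in vehicle against sham, 21 in AGNHW against vehicle and 9 in AGNHW against sham, so the direction of small differences depends on it. After it, 3 genes were higher (Vamp1, Vamp8 and Syt2) and 3 lower (Stxbp5l, Snap23 and Syt10) between vehicle and sham, while 4.37% of all genes were higher and 7.46% lower. Between AGNHW and vehicle, Snap23 and Stxbp5l remained higher, where 3.4% of all genes were. Between AGNHW and sham, Vamp1 and Syt2 were higher and Stxbp5l and Syt10 lower, against 2.6% and 3.33% of all genes. Stxbp5l, Snap23 and Syt10 had mean levels of 6.27, 7.76 and 1.16 CPM, below the 10 CPM minimum of the fit. Their corrected ratios, like those of every gene under 10 CPM, extend the trend to levels at which it was not fitted. The 6 genes called lower in vehicle before the correction had a median GC content of 44.3%, against 50.9% for the 46 genes that passed in neither direction.

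Among the vesicle SNAREs, Vamp1 had 384 CPM in AGNHW, 371 CPM in vehicle and 246 CPM in sham. It encodes synaptobrevin-1, which prevails in brainstem, spinal and fast-spiking neurons. AGNHW and vehicle were close together and both above sham. The ratio was 1.51 (1.45 to 1.57) between vehicle and sham, 1.56 (1.504 to 1.621) between AGNHW and sham, and 1.03 (0.999 to 1.07) between AGNHW and vehicle. After the length and GC correction the ratios to sham were 1.89 (1.82 to 1.97) for vehicle and 1.76 (1.70 to 1.83) for AGNHW. With plain CPM the vehicle ratio was 1.42, short of the threshold. Vamp2 had 1343, 1494 and 1264 CPM in AGNHW, vehicle and sham, a ratio of 1.18 (1.16 to 1.20) between vehicle and sham, which was 0.961 (0.944 to 0.979) after correction.

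Within the pair, Vamp1 took 22.2% of the Vamp1 and Vamp2 counts in AGNHW (21.8% to 22.7%), 19.9% in vehicle (19.4% to 20.4%) and 16.3% in sham (15.9% to 16.7%), with 95% Wilson intervals. These shares do not depend on the scaling of the libraries, and their intervals do not overlap. They do follow the trend with length and GC content: after correction the ratio between AGNHW and vehicle was 0.933 (0.900 to 0.966) for Vamp1 and 0.987 (0.9697 to 1.005) for Vamp2, so the order of AGNHW above vehicle turned round. Per kb of transcript the shares of Vamp1 were 9.94%, 8.75% and 6.98% in the same order.

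Vamp8, or endobrevin, serves granule release in secretory and blood cells and autophagosome fusion. It had 14.6 CPM in AGNHW, 20.0 CPM in vehicle and 9.62 CPM in sham, and was 2.08-fold higher in vehicle than in sham (1.72 to 2.51). The ratio was 0.729 (0.616 to 0.862) between AGNHW and vehicle and 1.51 (1.249 to 1.839) between AGNHW and sham, and the last was 1.38 after correction and 1.48 with plain CPM, both short of the threshold. The summed level of 9 blood cell markers was also higher in vehicle, at 73.0 CPM in AGNHW, 171 CPM in vehicle and 58.9 CPM in sham. So was that of the pituitary markers. Of the 8 blood cell markers compared between vehicle and sham, 6 were higher and 2 lower, where 8.66% and 14.2% of all genes were. The part of blood and pituitary cells in the Vamp8 values was not tested. The other vesicle SNAREs did not pass the rule with TMM. Vamp4, of endosomes and the trans-Golgi network, had 52.5, 42.8 and 60.9 CPM in AGNHW, vehicle and sham, and a ratio of 0.703 (0.637 to 0.774) between vehicle and sham that passed with plain CPM, at 1.51-fold lower. Vamp3, or cellubrevin, ranged from 25.2 to 29.9 CPM, and Vamp5 from 2.44 to 3.62 CPM.

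Among the calcium sensors, Syt1, the fast trigger of release in forebrain neurons, had 862 CPM in AGNHW, 843 CPM in vehicle and 1012 CPM in sham. Its ratio between vehicle and sham was 0.833 (0.815 to 0.852), and 1.04 after correction. Syt2, the fast sensor of brainstem, spinal and many fast-spiking neurons, had 103, 101 and 71.8 CPM in the same order. As for Vamp1, AGNHW and vehicle lay together above sham. The Syt2 ratio to sham was 1.400 (1.30 to 1.51) in vehicle and 1.44 (1.34 to 1.54) in AGNHW, short of 1.5, and 1.59 and 1.53 after correction, past it. Between AGNHW and vehicle it was 1.03 (0.958 to 1.10).

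Syt2 took 10.7% of the Syt1 and Syt2 counts in AGNHW (10.2% to 11.1%), 10.7% in vehicle (10.2% to 11.2%) and 6.62% in sham (6.29% to 6.97%). The 12 markers of GABAergic neurons, the class that includes fast-spiking cells, summed to 1336, 1170 and 1234 CPM in AGNHW, vehicle and sham. Between vehicle and sham their median log2 ratio was -0.15, with 1 higher and 1 lower, and -0.19 with 0 higher and 3 lower after correction. Over all genes 8.66% were higher and 14.2% lower, and 4.37% and 7.46% after correction. Of the 12 markers, 7 had ratios below 1 and 5 above. The 1 higher marker was the calcium buffer Pvalb, with 77.5, 84.4 and 52.6 CPM in AGNHW, vehicle and sham, whose call was lost after correction. The hindbrain and spinal list, of which 7 of 18 genes were counted, had summed levels of 53.2, 45.6 and 56.2 CPM in that order, and the 8 counted monoamine neuron genes 79.2, 95.7 and 46.9 CPM. The median log2 ratios of these lists between vehicle and sham were -0.32 and 0.62, and -0.11 and 0.72 after correction. The part of neuron makeup or dissection in the Vamp1 and Syt2 values was not tested.

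Syt3, a sensor of high calcium affinity, had 91.3 CPM in AGNHW, 113 CPM in vehicle and 71.0 CPM in sham. It was 1.60-fold higher in vehicle than in sham (1.49 to 1.72), and its longest transcript had the highest GC content of the 58 genes, 59.2%. After correction its ratio was 1.26, short of the threshold. Syt6, a relative of Syt3, had 22.7, 16.6 and 24.98 CPM in AGNHW, vehicle and sham and was 1.51-fold lower in vehicle (1.29 to 1.76). Its call was lost with upper-quartile factors (1.48-fold lower) and after correction (1.396-fold lower). Syt10, known from secretion in olfactory bulb neurons of the mouse, had 14, 9 and 40 counts in AGNHW, vehicle and sham. It was 3.59-fold lower in vehicle than in sham (1.72 to 8.42) and 2.77-fold lower in AGNHW than in sham (1.48 to 5.52), with the limit that only the sham library was above 1 CPM.

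The other synaptotagmins stayed within the rule in all 3 comparisons. Syt7, a slow sensor of asynchronous release, had 409, 383 and 444 CPM in AGNHW, vehicle and sham. Syt11, which does not bind calcium, had 659, 652 and 724 CPM in that order. Both were closest between AGNHW and vehicle and highest in sham. Syt4, an activity-induced member of peptide vesicles, had 81.7, 75.4 and 112 CPM, a ratio of 0.672 (0.625 to 0.722) between vehicle and sham that was just short of 1.5-fold, was 0.900 after correction and passed with plain CPM, at 1.58-fold lower. Syt5 (179 to 233 CPM) and Syt9 (23.2 to 29.3 CPM), another fast sensor, were highest in vehicle, at ratios to sham of 1.304 (1.24 to 1.37) and 1.26 (1.10 to 1.44). After correction these were 0.967 (0.922 to 1.014) for Syt5 and 1.24 for Syt9. Syt13 ranged from 273 to 296 CPM, Syt16 from 50.4 to 64.4 CPM, Syt17 from 50.4 to 56.8 CPM, Syt12 from 29.1 to 33.5 CPM and Syt14 from 11.2 to 15.3 CPM.

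Of the syntaxins, 0 of 13 passed the rule in any comparison. Stx1a, a plasma membrane syntaxin of neurons, had 354, 398 and 338 CPM in AGNHW, vehicle and sham. It was highest in vehicle, with a ratio to sham of 1.18 (1.14 to 1.22), and 0.895 after correction, on the other side of 1. Stx4a (51.3 to 58.3 CPM), Stx3 (38.1 to 40.8 CPM) and Stx2 (22.5 to 26.3 CPM) act at the surface of many cell types.

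The 8 syntaxins of internal membranes did not pass the rule after correction either. Stx6, of the trans-Golgi network, had 124, 126 and 108 CPM in AGNHW, vehicle and sham. Stx5a, of the Golgi, had 61.3, 74.8 and 58.4 CPM, a ratio of 1.28 (1.18 to 1.39) between vehicle and sham, and 1.33 after correction. The endosomal Stx12 and Stx7 had their highest levels in sham, at ratios of 0.818 (0.761 to 0.879) and 0.822 (0.764 to 0.884) for vehicle, which were 0.942 and 1.008 after correction. Stx16 ranged from 71.2 to 83.1 CPM, Stx18 from 28.0 to 31.4 CPM, Stx17, which fuses autophagosomes with lysosomes, from 27.1 to 28.1 CPM (a ratio of 0.964 between vehicle and sham, and 1.346 after correction), and Stx8 from 18.33 to 21.24 CPM. The exons of Stx18 overlap those of Nsg1, an opposite-strand gene, over 19.1% of their bases, so its counts could include reads of that gene.

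In the SNAP25 family, the synaptic Snap25 had 1652 CPM in AGNHW, 1558 CPM in vehicle and 1843 CPM in sham, with a ratio of 0.845 (0.831 to 0.859) between vehicle and sham. Its longest transcript had the lowest GC content of the 58 genes, 38.7%, and after correction the ratio was 1.249, on the other side of 1. Snap47, a widespread relative, had 377, 440 and 334 CPM in the same order, a ratio of 1.32 (1.27 to 1.36) between vehicle and sham and 1.05 after correction. Snap23, a SNAP25 counterpart of many cell types, had 7.99 CPM in AGNHW, 4.54 CPM in vehicle and 10.7 CPM in sham, from 146, 69 and 202 counts. Vehicle stood lowest, and AGNHW lay between it and sham.

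Snap23 was 2.37-fold lower in vehicle than in sham (1.79 to 3.16), and 1.91-fold lower after correction. It was 1.76-fold higher in AGNHW than in vehicle (1.31 to 2.38), and 1.61-fold after correction. Between AGNHW and sham the Snap23 ratio was 0.745 (0.598 to 0.926), which did not pass. The summed astrocyte markers were 3681, 3625 and 3844 CPM and the endothelial markers 281, 254 and 258 CPM in AGNHW, vehicle and sham. The median log2 ratios of these lists between vehicle and sham were -0.32 and -0.06, and -0.01 and -0.06 after correction. The part of such cells in the Snap23 values was not tested. Snap29, which acts in autophagosome fusion, had 19.5, 17.4 and 23.1 CPM in AGNHW, vehicle and sham and did not pass.

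Stxbp2, which serves granule release in immune and secretory cells, had 71.1 CPM in AGNHW, 82.1 CPM in vehicle and 63.6 CPM in sham, a ratio of 1.29 (1.191 to 1.398) between vehicle and sham. Stxbp3, of widespread surface traffic, had 17.0, 12.5 and 16.2 CPM in AGNHW, vehicle and sham. Its reads could be shared with the pseudogene Stxbp3-ps, which had 12, 6 and 6 counts, so both are uncertain.

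The remaining syntaxin-binding proteins, among them the tomosyns and amisyn that hold back fusion, had the lowest median of the roles between vehicle and sham. All 4 (Stxbp4, Stxbp5, Stxbp5l and Stxbp6) had ratios below 1 between vehicle and sham. Their median log2 ratio was -0.74, and -0.32 after correction. Past the rule were 3 of them, and 1 after correction, where 14.2% and then 7.46% of all compared genes were lower. All 4 had under 45% GC in their longest transcript, a range in which 1278 of 3686 compared genes were lower. Stxbp5l, or tomosyn-2, a decoy that blocks SNARE assembly, had 104 counts in AGNHW, 46 in vehicle and 190 in sham, or 5.69, 3.02 and 10.1 CPM. It was 3.34-fold lower in vehicle than in sham (2.41 to 4.71) and 2.60-fold lower after correction. It was 1.88-fold higher in AGNHW than in vehicle (1.32 to 2.73), 1.68-fold after correction, and 1.77-fold lower in AGNHW than in sham (1.39 to 2.27).

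The related tomosyn gene Stxbp5 had 51.1 CPM in AGNHW, 50.2 CPM in vehicle and 68.3 CPM in sham. Its ratio of 0.735 (0.671 to 0.804) between vehicle and sham turned to 1.18 after correction. Stxbp6, or amisyn, had 35.3, 26.3 and 45.5 CPM in the same order and was 1.73-fold lower in vehicle than in sham (1.53 to 1.95), with 1.302-fold after correction. Stxbp4, or synip, known from insulin-regulated traffic, had 14.3, 9.86 and 16.3 CPM and was 1.65-fold lower (1.35 to 2.02), with 1.21-fold after correction. For both, AGNHW lay between vehicle and sham, with ratios to vehicle of 1.34 (1.18 to 1.53) and 1.45 (1.19 to 1.79), short of the rule. With plain CPM the Stxbp4 ratio to vehicle was 1.51 and passed.

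The complexins, which clamp and then promote fusion, showed the flattest gene of the core. Cplx2 had 1324 CPM in both AGNHW and vehicle and 1307 CPM in sham, and its counting intervals held 1 in all 3 comparisons with TMM. Cplx1 had 1349, 1390 and 1097 CPM in AGNHW, vehicle and sham, a ratio of 1.27 (1.24 to 1.29) between vehicle and sham and 0.979 after correction. Cplx1 took 50.1% (49.6% to 50.5%), 50.7% (50.2% to 51.2%) and 45.2% (44.7% to 45.6%) of the complexin counts in AGNHW, vehicle and sham. These shares are uncorrected. After correction the Cplx2 ratio between vehicle and sham was 0.991, close to that of Cplx1. Cplx3, best known from ribbon synapses of the retina, ranged from 22.7 to 27.9 CPM.

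Among the proteins of the vesicle membrane, Sv2a, the binding site of the antiepileptic drug levetiracetam, had 580 CPM in AGNHW, 652 CPM in vehicle and 539 CPM in sham. Sv2b had 262, 238 and 341 CPM in that order. The forms lay on opposite sides of 1, with ratios between vehicle and sham of 1.21 (1.18 to 1.24) for Sv2a and 0.696 (0.669 to 0.726) for Sv2b, neither past the rule with TMM. Sv2b passed it with plain CPM, at 1.53-fold lower. After correction the ratios were 1.13 and 0.871. Sv2b took 29.0% of the SV2 counts in AGNHW (28.3% to 29.7%), 25.3% in vehicle (24.6% to 26.0%) and 36.5% in sham (35.8% to 37.2%). Sv2c, the form of basal ganglia and some endocrine cells, had 61.4, 49.6 and 55.9 CPM in AGNHW, vehicle and sham, highest in AGNHW, and its ratio between vehicle and sham was 0.888, and 1.21 after correction.

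The synapsins differed little. Syn1 had 711, 732 and 699 CPM and Syn2 401, 416 and 452 CPM in AGNHW, vehicle and sham. Between vehicle and sham the Syn1 ratio was 1.05, and 0.871 after correction. The Syn2 ratio was 0.922, and 0.892 after correction, so the Syn1 ratio was no longer the higher. Without correction, Syn1 took 63.5%, 63.3% and 60.3% of the synapsin counts in AGNHW, vehicle and sham. Syn3 ranged from 7.56 to 9.35 CPM. Snap91 matches the symbol rule but encodes AP180, a clathrin adaptor that retrieves vesicle membrane. It had 178, 154 and 229 CPM in AGNHW, vehicle and sham, and was 1.49-fold lower in vehicle than in sham (1.42 to 1.57), just short of the threshold, and 1.59-fold with plain CPM, past it. After correction its ratio was 0.878.

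**Figure D4:**
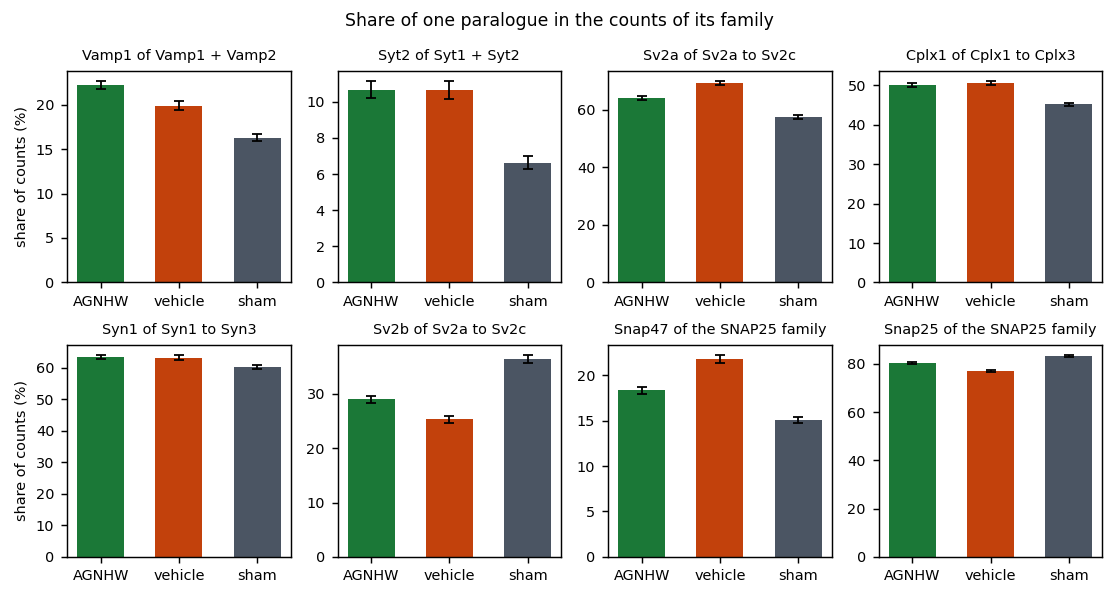
Share of counts (%) that 1 paralogue took within its family in the AGNHW, vehicle and sham libraries, with 95% Wilson intervals for counting error. The Vamp1 and Syt2 bars are higher in AGNHW and vehicle than in sham, and the Sv2b bars are lower. The shares are not corrected for transcript length and GC content.

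The partners of this machinery, in 4 lists, gave a mixed picture. Between vehicle and sham their median log2 ratios were -0.27 (active zone and priming), 0.05 (SNARE assembly and recycling), 0.12 (vesicle membrane and traffic) and 0.05 (endocytosis), beside 0.01 for all compared genes. Of 26 active zone and priming genes, 3 were higher and 6 lower between vehicle and sham, and 1 and 0 after correction. Over all genes 22.8% were called before the correction and 11.8% after it. Pclo, the giant active zone scaffold piccolo, had 100.2 CPM in AGNHW, 70.0 CPM in vehicle and 136 CPM in sham, a ratio of 0.517 (0.480 to 0.555) between vehicle and sham, and its call was lost after correction. Rph3al, a Rab effector of endocrine granules, was 2.01-fold higher in vehicle (1.36 to 3.02). Of 23 genes of SNARE assembly and recycling, 2 were higher and 0 lower, namely the synuclein Sncg at 2.19-fold (1.73 to 2.78) and the SNARE Use1 of the endoplasmic reticulum at 1.59-fold (1.48 to 1.71). After correction 1 gene of the list was higher, Bnip1, and neither Sncg nor Use1 passed. Bnip1 is named outside the naming rule, after its values were seen.

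Of 31 compared vesicle membrane and traffic genes, 1 was higher and 4 lower between vehicle and sham, and 2 and 1 after correction. Sytl1, a Rab27 effector, was 3.45-fold higher (1.83 to 6.87) and Esyt3, a tether of the endoplasmic reticulum to the plasma membrane, 3.90-fold lower (2.29 to 7.01). Of 30 endocytosis genes, 1 was higher and 6 lower, and 0 and 2 after correction. Over all genes 8.66% were higher and 14.2% lower, and 4.37% and 7.46% after correction. Dnajc6, or auxilin, which strips clathrin from vesicles, had 106 CPM in AGNHW, 86.7 CPM in vehicle and 162 CPM in sham, 1.87-fold lower in vehicle than in sham (1.75 to 1.99). Fcho2, which starts clathrin pits, was 1.79-fold lower (1.48 to 2.19).

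Between AGNHW and vehicle, 4.01% of all genes were higher and 2.56% lower. The 4 lists had 2 higher and 1 lower, 0 and 0, 1 and 0, and 0 and 0 genes in the order given. The largest were Unc13d, a priming factor of immune cells, 2.05-fold higher (1.10 to 4.03), Unc13c, a priming factor of the cerebellum, 1.59-fold higher (1.39 to 1.83), and Esyt3, 2.205-fold higher (1.24 to 4.11). After correction the active zone and priming list had 1 higher and 0 lower, the call of Unc13c was lost, and those of Unc13d and Esyt3 remained. Between AGNHW and sham the counts were 0 and 1, 1 and 0, 1 and 1, and 0 and 2. Of all genes, 3.32% were higher and 5.47% lower. Rims1, an active zone organiser, was 1.62-fold lower in AGNHW than in sham (1.53 to 1.72), Sncg 1.66-fold higher (1.31 to 2.12), Dnajc6 1.53-fold lower (1.44 to 1.62) and Fcho2 1.57-fold lower (1.32 to 1.88), and all 4 lost the call after correction. Sytl1 was 2.36-fold higher (1.22 to 4.78) and Esyt3 1.77-fold lower (1.21 to 2.60), with calls that remained, from 14 to 82 counts per library.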

How the data were processed

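For each library the authors deposited a table of raw counts, whole numbers listed by gene symbol. The submitters' processing notes name TopHat2 2.0.12, HTSeq 0.6.0, Bowtie2 2.2.3 and the mouse build mm9, without order, settings or strand. No listed gene summed to under 21 counts, so genes of lower counts were not analysed here. The exons of 10 of the 58 genes overlap another gene on the opposite strand, 4 of them a counted gene, and such reads cannot be told apart.

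Samples were grouped by title, with 1 library per group. Counts were scaled with TMM (edgeR 4.0.16 in R 4.3.3) and given as CPM. Ratios carry exact conditional binomial intervals (95%) and log2 ratios a prior count of 5. The size rule (1.5-fold, mean CPM of at least 1, interval excluding 1) was run over all 15558 genes that reached the minimum. Intervals cover counting error only, and PCR copies counted as separate reads would make them too narrow. Length and GC content came from the longest GENCODE M21 transcript, matched for 97.7% of counted genes and for all 58. The counts are per gene, so the transcripts present may differ from the longest, and corrected ratios depend on that choice. A smooth trend was fitted with mgcv 1.9.3 on genes of at least 10 CPM. The GC ranges and the family shares were chosen after the data were seen. The scripts were tested on simulated data.

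The members, lists and roles were chosen with earlier results of these data known. Named with full values were 15 core release genes (a few genes of the list enter the counts and medians but are not reported here), every gene past the size rule in any comparison and the highest gene of each role, with others given by range. In each list of partners, the 2 largest changes past the rule in each comparison were named. Alternatives were plain CPM, DESeq2 1.42.0 size factors, upper-quartile factors, other minimums and thresholds, the length and GC correction and a prior count of 0.5. Promoter sequences were taken from RefSeq (GRCm38.p6). The counts carry no coordinates.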

Additional observations from a re-analysis of the deposited data

How the results depend on the processing

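The counts of higher and lower genes moved with the threshold. At a log2 threshold of 0.32, 10 were higher and 15 lower between vehicle and sham, 6 and 1 between AGNHW and vehicle, and 4 and 9 between AGNHW and sham. At 2-fold these were 1 and 3, 0 and 0, and 0 and 1. With plain CPM, 10 were lower between vehicle and sham and 1 was higher between AGNHW and sham. With a minimum of 5 CPM, 1 gene was lower between AGNHW and sham, since Syt10 was no longer compared. The share of all genes that passed was not computed at these thresholds, with plain CPM or at this minimum. After the length and GC correction, 3 were lower between vehicle and sham. All other counts were within 1.5 times of those reported under every alternative, and the medians moved by less than 0.1. DESeq2 size factors and no filter changed 0 of the 6 counts. The prior count does not enter the size rule, so a prior count of 0.5 could not change them. No called gene changed its direction with other scaling or with the length and GC correction. The other alternatives leave the ratios as they are and could not change a direction. Plain CPM moved the median log2 ratio of all genes between vehicle and sham by -0.09. No paired analysis was possible because each group has 1 library. Syt10, with 9 to 40 counts per library, shows what depth limits, since its interval between AGNHW and vehicle ran from 0.522 to 3.39.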
